A study of Mus musculus with 18 samples.

Results

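Intronic m6A regions are stretches of the mouse genome where the authors' peaks of N6-methyladenosine (m6A) were annotated to an intron. In each of the 9 deposited peak lists the peaks with the location "intron" were taken, and peaks that shared 1 base or more were merged across lists. The 50224 intronic peaks gave 17038 regions, out of 338246 peaks and 67750 regions of every transcript part. They lay on 7293 of the 12634 genes with a peak, or 57.7%. Of these regions, 2796 (16.4%) were held by 5 or more lists, where 35.4% of the regions of every part were. A further 5011 were held by 2 to 4 lists, and 9231 (54.2%) by 1 list alone, where 31.8% of the regions of every part were.

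The cells were 3T3-L1, a mouse embryo fibroblast line of preadipocytes that can be turned into fat-storing adipocytes. m6A-seq binds fragmented RNA to an m6A antibody (IP) and compares it with the fragments before binding (input), and the 18 samples form 9 such pairs with 1 peak list each. The stage lists came from days -2, 0, 2, 5 and 10 of adipogenesis, with 1 list per day. The other 4 came from 3T3-L1 cells with knockdown of Fto, named siFTO (2 lists), and from their controls, named siCtrl (2 lists). The labels call every sample preadipocytes, the later days too, and the sources used here state neither the agents that induced adipogenesis nor the day of the siFTO and siCtrl cells. All cells are of 1 line, and separate cultures are not stated for the replicates, so a p-value measures only the spread between these lists.

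m6A is written onto nascent RNA in the nucleus by the Mettl3-Mettl14 complex with its adaptor Wtap, is removed by the demethylases Fto and Alkbh5, and is read by proteins such as those of the YTH family. Introns are mostly spliced out before an RNA leaves the nucleus, so m6A in them is usually seen on unspliced or retained sequence. The libraries were made from poly(A)-selected RNA. Binding of Hnrnpa2b1 and Ythdc1 to m6A has been tied to miRNA processing and to splicing.

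The sequences below show what kinds of place the "intron" label covered. The first set is miRNA hairpins that lay whole inside an intronic region, chosen from the 22 met among the 1005 hairpins searched. They were taken because 1 was in a region of all 9 lists and the others in regions of 4 to 7 lists. All the hairpins shown lie on the strand opposite to the gene whose intron the files name. For Mir199a-2 and Mir214, on the plus strand, that gene is Dnm3, and both lie within the noncoding gene Dnm3os. Capitals mark the mature miRNAs in each hairpin, and the seed (bases 2 to 8) in each mature miRNA. The sequences are from RefSeq (GRCm38.p6, the mm10 assembly) and run 5′ to 3′.
Mir7654 hairpin, chr8:8690093-8690162, minus strand: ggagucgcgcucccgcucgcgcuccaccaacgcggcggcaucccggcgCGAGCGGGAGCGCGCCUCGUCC
mmu-miR-7654-3p: cGAGCGGGagcgcgccucgucc
Mir8114 hairpin, chr1:153899926-153900036, plus strand: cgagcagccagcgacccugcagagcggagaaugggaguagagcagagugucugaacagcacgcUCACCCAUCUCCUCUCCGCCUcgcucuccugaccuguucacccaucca
mmu-miR-8114: uCACCCAUcuccucuccgccu
Mir214 hairpin, chr1:162223368-162223477, plus strand: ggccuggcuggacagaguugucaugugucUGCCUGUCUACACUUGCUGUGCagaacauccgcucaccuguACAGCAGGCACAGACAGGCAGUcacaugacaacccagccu
mmu-miR-214-5p: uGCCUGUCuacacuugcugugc
mmu-miR-214-3p: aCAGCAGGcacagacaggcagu
Mir199a-2 hairpin, chr1:162217814-162217923, plus strand: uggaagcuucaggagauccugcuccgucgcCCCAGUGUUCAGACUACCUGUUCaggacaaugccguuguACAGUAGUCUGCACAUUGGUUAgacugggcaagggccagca
mmu-miR-199a-5p: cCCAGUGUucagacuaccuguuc
mmu-miR-199a-3p: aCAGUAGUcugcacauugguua
The 6 mature miRNAs printed had 6 different seeds.

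The second set shows intronic regions of all 9 lists that covered a RefSeq start of their own gene, which was the gene's own outer start in Fkbp5 and an internal start in Olfm1, Epb41l1 and Tent4b. Among regions of all 9 lists that did so and met no other gene, these 4 had the highest fold ranks within the lists. Each line gives the bases of the region that lie in the window from 250 bases before to 50 bases after that start, read on the gene's strand. Capitals mark GGAC, the core of the motif in which m6A is usually found.
Olfm1, chr2:28205651-28205738, plus strand: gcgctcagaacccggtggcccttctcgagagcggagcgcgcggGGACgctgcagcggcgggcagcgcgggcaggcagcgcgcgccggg
Epb41l1, chr2:156475526-156475583, plus strand: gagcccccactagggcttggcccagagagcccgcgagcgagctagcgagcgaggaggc
Tent4b, chr8:88199632-88199931, plus strand: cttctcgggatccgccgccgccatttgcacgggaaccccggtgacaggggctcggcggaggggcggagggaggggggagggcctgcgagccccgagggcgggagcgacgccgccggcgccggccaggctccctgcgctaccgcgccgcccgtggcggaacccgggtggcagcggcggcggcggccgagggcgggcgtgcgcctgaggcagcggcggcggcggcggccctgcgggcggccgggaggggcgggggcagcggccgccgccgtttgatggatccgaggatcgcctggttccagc
Fkbp5, chr17:28486100-28486175, minus strand: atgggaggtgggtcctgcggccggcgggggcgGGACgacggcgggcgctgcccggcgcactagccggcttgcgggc

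The lists held 26485 to 44529 peaks, with 3976 to 7689 of them intronic. Read depth is unknown. Of 8 adipocyte markers, 8 had a peak at days 5 and 10 and 2 at day 0, in both siFTO lists and in both siCtrl lists, and 1 to 3 of 19 markers of macrophages, endothelium and muscle had a peak in any list. The day -2 list stood apart from the other stages in its intronic peaks, as the values by list below show.

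A smaller share of intronic regions than of regions over every part was found in many lists. Held to the same rule, 40.2% of the 39557 coding regions, 49.6% of the 6064 regions in 5′ UTRs and 32.7% of the 9616 regions in 3′ UTRs were in 5 or more lists. All 9 lists held 560 intronic regions, which lay on 399 genes. At the boundary of the rule, 639 regions were held by exactly 5 lists and 1147 by exactly 4.

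**Figure D1:**
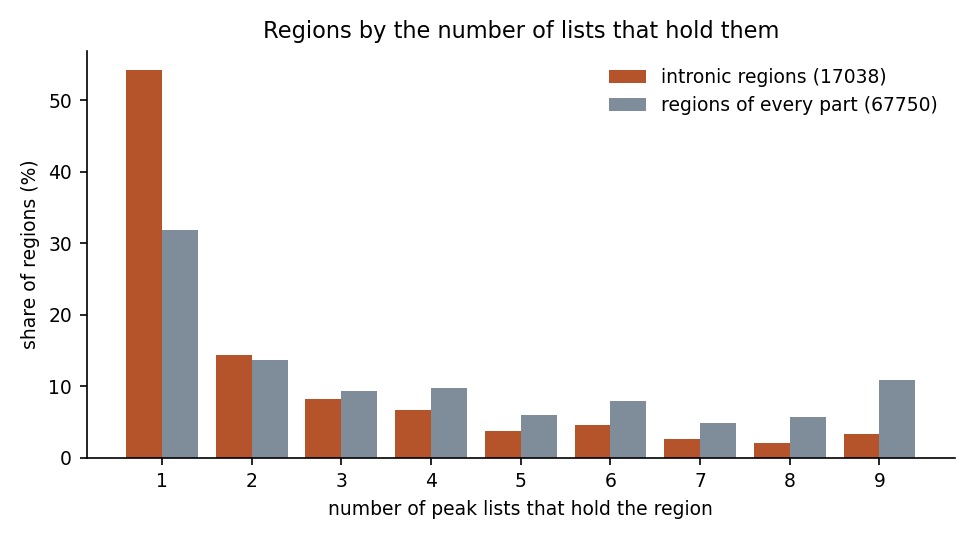
Share of regions (vertical axis, %) by the number of peak lists that hold them (horizontal axis), for the 17038 intronic regions and for the 67750 regions of every part. Intronic regions have the taller bar at 1 list, 54.2% against 31.8%, and the shorter one at 9 lists, 3.29% against 10.9%.

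The regions of 1 list came mostly from 3 of the 9 lists. siFTO 1 held 3287 of them, day -2 held 2775 and siFTO 2 held 1310, against 55 in siCtrl 1 and 234 in siCtrl 2. The other stage lists held 387 at day 0, 591 at day 2, 333 at day 5 and 259 at day 10. As a share of the list's intronic peaks, 42.8% in siFTO 1 (95% Clopper-Pearson interval 41.6 to 43.9) and 24.4% in siFTO 2 (23.3 to 25.6) were in no other list. The shares were 1.38% in siCtrl 1 (1.04 to 1.80) and 5.13% in siCtrl 2 (4.51 to 5.81). Day -2 reached 49.0% (47.7 to 50.3) and the later days 4.44% to 10.3%. These intervals cover counting error only.

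**Figure D2:**
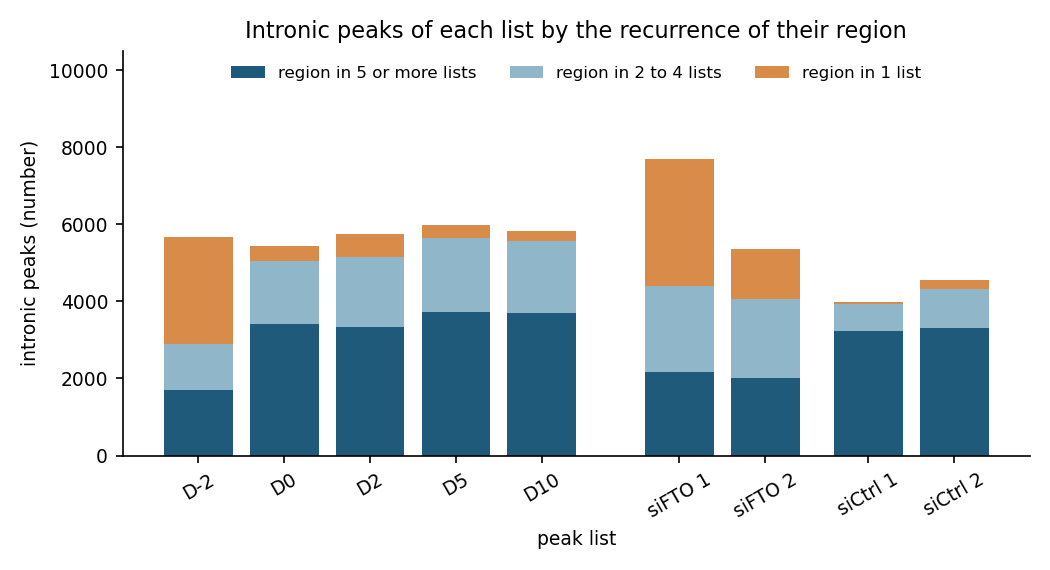
Number of intronic peaks (vertical axis) in each of the 9 peak lists (horizontal axis), split by whether their region is in 5 or more, 2 to 4, or 1 list. The share in 1 list makes up 49.0% of the bar of day -2, 42.8% of siFTO 1 and 24.4% of siFTO 2, and at most 10.3% of the other bars.

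Regions of 1 list had higher median folds than recurrent ones in 6 of the 9 lists. The deposited enrichment, read here as the fold of IP over input, had a median of 15.9 in siFTO 1 and 17.7 in siFTO 2 for peaks of 1-list regions, against 4.88 and 5.20 for peaks of regions in 5 or more lists. At day -2 the medians were 42.2 for 1-list peaks and 8.04 for recurrent peaks. In siCtrl 1 and siCtrl 2 the 1-list peaks had medians of 5.44 and 6.56, and the recurrent peaks 4.37 and 4.39. Day 0 had the same order, with 27.6 for 1-list and 10.0 for recurrent peaks. On the later days the 1-list median was not the higher one, with 9.55 for 1-list and 10.5 for recurrent peaks at day 2, 10.77 and 10.825 at day 5, and 7.92 and 12.0 at day 10.

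Many 1-list peaks had a fold that was repeated across the list. A value shared by 10 or more intronic peaks of the list was carried by 79.0% of 1-list peaks in siFTO 1 and 75.3% in siFTO 2, and by 19.6% and 12.4% of recurrent peaks there. At day -2 the shares were 43.0% of 1-list and 7.20% of recurrent peaks, and in siCtrl 1 they were 27.3% and 14.3%. The part of such repeated values in the counts of 1-list regions was not tested.

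The intronic peaks had a higher median fold than the coding peaks of the same list in all 9 lists. The medians were 9.74 for intronic and 3.57 for coding peaks in siFTO 1, 8.91 and 3.64 in siFTO 2, 4.43 and 3.30 in siCtrl 1, and 4.58 and 3.30 in siCtrl 2. Over the days they were 22.1 for intronic and 4.29 for coding peaks at day -2, and 9.91 to 11.0 for intronic and 4.75 to 5.63 for coding peaks from day 0 to day 10. The scaling of folds for depth is not known, so a difference in fold between lists is given as a value only.

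Recurrent intronic regions lay nearer to gene starts than regions of 1 list. Distance could be measured for 15357 regions, those inside a RefSeq gene of the same name. Of the regions in 5 or more lists, 29.6% (672 of 2273) had their middle within 1000 bases of the start, against 19.6% of those in 2 to 4 lists and 9.60% (825 of 8592) of those in 1 list. Their median distances were 6704, 11412 and 18072 bases. The genes also differed in length, with a median of 27306 bases for hosts of recurrent regions and 39047 bases for hosts of 1-list regions. The lists of origin differed as well, since siFTO 1, day -2 and siFTO 2 held most of the 1-list regions. Of their intronic peaks, 6.65%, 10.5% and 8.32% lay within 1000 bases of the start, against 25.3% to 35.4% in the other lists. The part of the list of origin in this contrast was not tested. Among the other parts, 76.7% of regions in 5′ UTRs, 9.49% of coding regions and 0.477% of regions in 3′ UTRs lay as near.

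**Figure D3:**
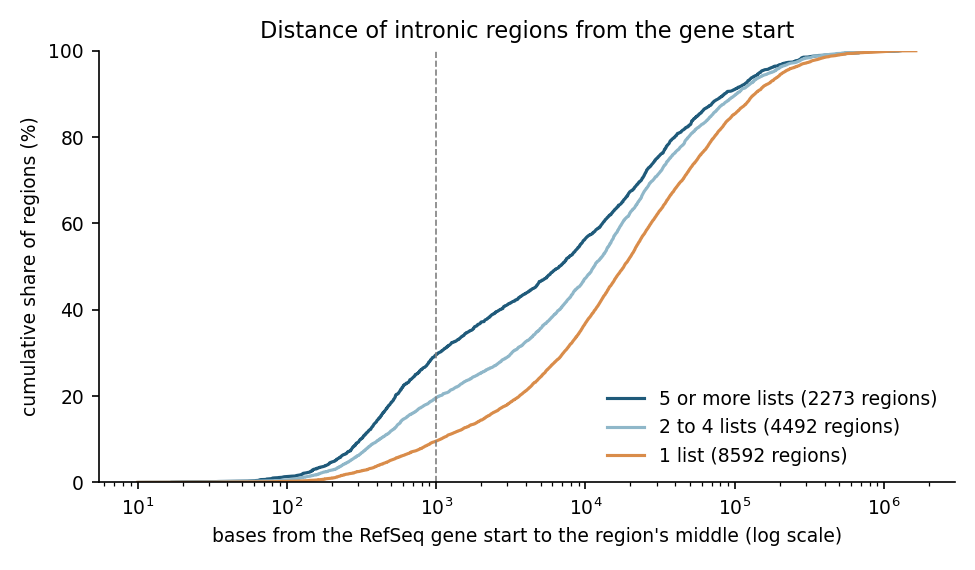
Cumulative share of intronic regions (vertical axis, %) by the bases from the RefSeq gene start to the region's middle (horizontal axis, log scale), for regions in 5 or more, 2 to 4 and 1 list. At the dashed line, 1000 bases, the curves stand at 29.6%, 19.6% and 9.60%.

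Starts of the same gene were met more often in recurrent regions, 167 of 2796 (5.97%) against 37 of 9231 (0.401%). The windows around the starts met by recurrent regions, 180 in number, held GGACT in 26.1% of cases, as did 26.1% of all 32851 windows of the RefSeq table. GGAC, which lies within GGACT, was in 82.2% of the 180 windows and in 65.6% of all windows. It was also in 83.0% of the 106 windows of regions in 2 to 4 lists. For the 39 windows of 1-list regions the share was 79.5%. GGACT was in 29.2% of those 106 and 43.6% of those 39 windows, so neither motif was particular to recurrent regions. On the other strand, AGTCC was in 22.2% of the 180 and 26.0% of all windows, and GTCC in 72.2% and 66.1%. These are letter matches in a window and locate no m6A.

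The "intron" label often covered sequence of a second gene. Another RefSeq gene overlapped 31.8% of recurrent regions and 14.9% of 1-list regions, and that gene was protein-coding for 25.3% and 8.02%. The region's middle was outside the RefSeq gene of the named host, or that gene could not be matched, for 18.7% of recurrent and 6.01% of 1-list regions. A peak annotated to a coding, UTR or unspecified exonic part in any list met 16.8% of recurrent and 5.44% of 1-list regions. Recurrent regions were the longer ones, and the part of length in these shares of overlap was not tested. The tables used here hold no exons, so it was not tested which of these regions an exon of the second gene, or of the host itself, covers. Counted only from peaks in their own RefSeq gene that met no other, 1896 regions were in 5 or more lists and 7687 in 1 list.

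The gene with most recurrent regions was of this kind. The gene ID Gm20388, named after its counts were seen, had 214 regions in 5 or more lists, among 554 regions spread over chr8:119941101-124340100, and 206 of them met other RefSeq genes, 54 in number. Without it, 2582 regions were in 5 or more lists. Gm20388 gave 214 of the 523 recurrent regions outside their host's RefSeq gene or without a matched one. It also gave 206 of the 889 recurrent regions that met another gene. Epo, the gene of erythropoietin, was given 20 recurrent regions between 137501476 and 137532100 on chromosome 5, all outside the RefSeq Epo gene. They met 3 other genes, among them Gigyf1, a translational repressor, whose region at chr5:137520526-137521025 was in all 9 lists. Arfip1, which binds small GTPases at the Golgi, had 15 recurrent regions, all outside its RefSeq gene. Values under these names are therefore values of the place and not of the named transcript.

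Other hosts held many recurrent regions within the span of their own RefSeq gene. Whether an exon of the host itself covers these regions was not tested. Ahnak, which encodes a giant scaffold protein at the plasma membrane, had 23 recurrent regions between 8989401 and 9018275 on chromosome 19, none of which met another gene. Its intronic peaks numbered 27, 16, 10, 21 and 20 at days -2, 0, 2, 5 and 10, and 57 and 45 in siFTO lists, against 67 and 72 in siCtrl lists. The siFTO counts of Ahnak thus lay below the siCtrl counts, and day 2 had the fewest. Sned1, a secreted matrix protein, had 11 recurrent regions and 20 and 10 intronic peaks in siFTO lists, against 20 and 24 in siCtrl lists. Med1, a Mediator subunit that binds nuclear receptors such as PPARγ, had 7 recurrent regions and nearly even counts, with 5 to 8 intronic peaks in every list. Macf1, a large protein that links actin and microtubules, had 8, of which 5 met another gene.

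The regions of all 9 lists with the highest fold ranks were named for Olfm1, Slc36a2, Pi4k2a, Exoc1, Syde1, Rab6a, Rab3gap1, Xrcc4, Cep164 and Snx13. For the first 4, the lowest-ranked of the 9 folds still lay at percentile 92.6 or higher among the folds of all peaks of its list, of every part. The region named for Xrcc4 lay outside the RefSeq Xrcc4 gene. In Olfm1, a secreted glycoprotein of the nervous system, the region chr2:28205651-28205975 had folds of 561, 551, 70.8, 479 and 584 at days -2, 0, 2, 5 and 10. It had 93.8 and 117 in siFTO lists, against 70.0 and 44.4 in siCtrl lists, so both siFTO folds were above both siCtrl folds. Exoc1, a subunit of the exocyst that tethers secretory vesicles, had 645, 1326, 43.2, 234 and 134 over the days. Its region chr5:76562376-76562675 had 157 and 885 in siFTO lists, against 12.7 and 11.2 in siCtrl lists. Pi4k2a, a phosphatidylinositol 4-kinase, had a region 915 bases from its start, chr19:42090951-42091175, with 50.9 and 31.8 in siFTO lists and 36.4 and 28.7 in siCtrl lists, values that overlapped. Of the other regions with a start sequence shown, that of Tent4b, which adds nucleotides to RNA tails, had 9.54 and 8.69 in siFTO lists against 8.39 and 9.50 in siCtrl lists, and 23.9, 456, 503, 236 and 396 over the days. Fkbp5, a glucocorticoid-responsive co-chaperone, had 29.2 and 35.1 in siFTO lists against 5.85 and 7.42 in siCtrl lists, so its siFTO folds lay above its siCtrl folds. Epb41l1, a protein that links membrane proteins to the cytoskeleton, had the other order, with 13.6 and 13.8 in siFTO lists against 40.5 and 32.2 in siCtrl lists. Rab6a, a Golgi GTPase, had its region 888 bases from the start, where it met Mrpl48 as well.

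Between siFTO and siCtrl, the siFTO lists held more intronic peaks on more genes, and fewer of their peaks were near gene starts or shared with the stages. The tests below are two-sided exact permutation tests over the 6 ways to split 4 lists into pairs, for which 0.333 is the smallest possible p. No difference can therefore pass a threshold, and each p is adjusted over the 6 measures by the Benjamini-Hochberg method. The number of intronic peaks was 7689 and 5359 in siFTO lists, against 3976 and 4561 in siCtrl lists, a difference in means of 2255.5 (exact p = 0.333, adjusted 0.4). Without siFTO 1 the difference was 1090.5, and without siFTO 2 it was 3420.5. Genes with an intronic peak numbered 4146 and 3217 in siFTO lists, against 1982 and 2237 in siCtrl lists (exact p = 0.333, adjusted 0.4). As a share of all peaks, intronic ones averaged 18.3% ± 1.65 in siFTO lists and 11.4% ± 0.427 in siCtrl lists (SD, n = 2 each, exact p = 0.333, adjusted 0.4). With only the peaks that reached their list's median fold, that difference was 13.3 percentage points, against 6.96 over all peaks.

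The share of intronic peaks that met an intronic peak of at least 3 stage lists was 23.2% and 31.4% in siFTO lists, against 72.7% and 65.0% in siCtrl lists. The difference in means was -41.5 percentage points (exact p = 0.333, adjusted 0.4). Both siFTO lists were below both siCtrl lists in this share.

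The share within 1000 bases of the gene start was 6.65% and 8.32% in siFTO lists, against 27.0% and 25.3% in siCtrl lists. The difference in means was -18.7 percentage points (exact p = 0.333, adjusted 0.4), a measure added after the data had been examined. Over the days the share was 10.5% at day -2 and 35.4%, 34.5%, 29.98% and 32.5% at days 0, 2, 5 and 10, so day -2 lay closer to the siFTO lists than to any other stage. Coding peaks had the same order of lists at a lower level, with 5.63% and 5.86% near the start in siFTO lists, 11.0% and 10.0% in siCtrl lists, 6.76% at day -2 and 12.4% to 14.7% from day 0 on. The share of all peaks in 5′ UTRs had that order too, at 4.33% and 5.01% in siFTO lists, 11.9% and 11.2% in siCtrl lists, 5.90% at day -2 and 11.9% to 14.0% from day 0 on. A difference between intronic and coding peaks in this was not tested.

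**Figure D4:**
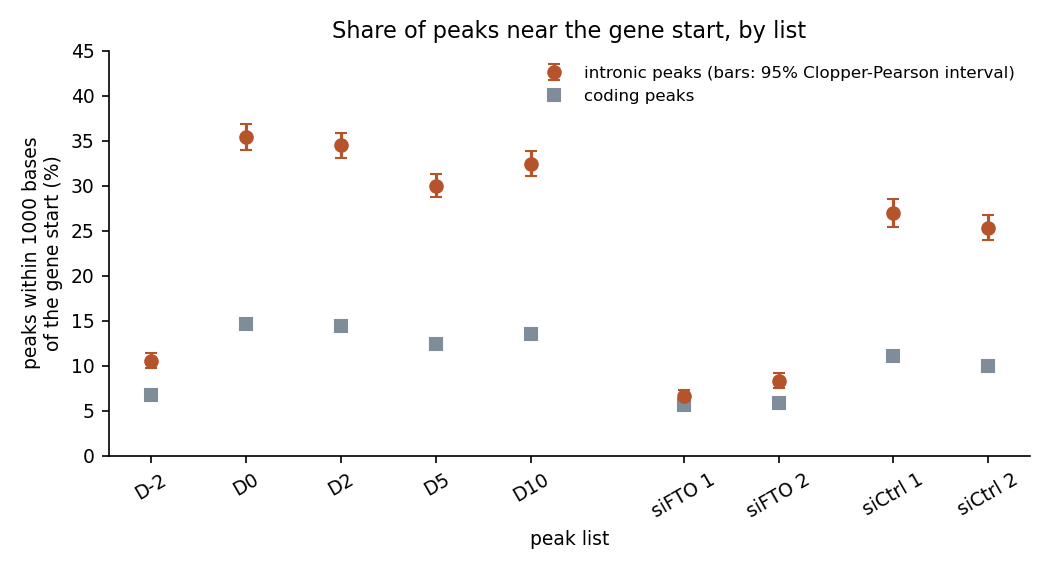
Share of peaks within 1000 bases of the RefSeq gene start (vertical axis, %) in each peak list (horizontal axis), for intronic peaks with 95% Clopper-Pearson intervals and for coding peaks. The intronic shares of siFTO 1, siFTO 2 and day -2 lie between 6.65% and 10.5%, and those of the other 6 lists between 25.3% and 35.4%.

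The share of intronic peaks on a gene with a coding or UTR peak in the same list differed by less than the gap between the siFTO lists, and by more than that between the siCtrl lists. It was 76.0% and 71.3% in siFTO lists, against 76.5% and 75.7% in siCtrl lists, with overlap of the ranges only in that siFTO 1 lay between the siCtrl lists (exact p = 0.667, adjusted 0.667). With only the peaks that reached their list's median fold, the difference in means was -11.3 percentage points (exact p = 0.333), against -2.44 over all peaks. Over all peaks it was -4.79 without siFTO 1 and -0.0888 without siFTO 2.

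By region, 1503 of the 10754 intronic regions of the siFTO and siCtrl lists were held by both siFTO lists and neither siCtrl list, here called gained. This is 14.0%, where 12.3% of the regions of every part were gained. Held by both siCtrl lists and neither siFTO list, called lost, were 1063 (9.88%), where 14.5% of the regions of every part were lost. The names describe presence of intronic peaks in lists and no measured change at a site. A peak of another transcript part met 4.59% of the gained and 23.2% of the lost regions in at least 1 list. Counted only from intronic peaks that shared no base with such a peak in any list, 1447 regions were gained and 895 lost. The excess of gained over lost regions depended on the setting. With the 3976 intronic peaks of highest fold taken from each list, 818 regions were gained and 1547 lost. With only the peaks that reached their list's median fold, 1252 were gained and 818 lost. The first setting changes list length and fold together, and their parts were not tested. With 1 siFTO list alone the gained regions numbered 3126 (without siFTO 1) and 5195 (without siFTO 2). No site had a count of reads, so a region absent from a list may lie just under the authors' threshold. It may also be met there by a peak of another transcript part.

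Gained and lost regions differed in position. Of the gained regions with a distance, 5.13% (71 of 1385) lay within 1000 bases of the start, against 44.4% (405 of 913) of the lost ones, and the median distances were 19432 and 1663 bases. With lists of equal length the shares were 2.84% of gained and 34.9% of lost regions, and for regions in their own gene alone 5.41% and 44.8%. In coding sequence 2.87% of gained and 18.9% of lost regions were as near, and in 5′ UTRs 56.0% and 81.6%. Of the lost regions near a start, 76.0% (308 of 405) were on a gene with a coding or UTR peak in both siFTO lists, and 18.3% on a gene with none in either. Whether such a peak lay at the lost region itself was not tested. Of all gained regions, 67.3% were on a gene with a coding or UTR peak in both siCtrl lists.

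The stage lists were not used in calling regions gained or lost. Lost regions were in 72.4%, 68.5%, 75.6% and 73.8% of cases also present at days 0, 2, 5 and 10, and in 17.1% at day -2. Gained regions were present in 10.1%, 9.65%, 12.9% and 11.6% of cases at days 0, 2, 5 and 10, and in 32.7% at day -2. The day -2 list thus held a larger share of the gained than of the lost regions, and each later list a larger share of the lost ones. Exactly the pattern of days 0, 2, 5, 10 and both siCtrl lists was shown by 467 regions, 54.2% of them near a start. Exactly day -2 with both siFTO lists was shown by 339 regions, with 2.22% near a start.

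The gained regions with the highest fold ranks were in Ston1, Prepl, Tnfrsf23, Hspa12b, Mycbp2, Wls, Cln3, Mical2, Avil and Tbc1d1. Ston1, an adaptor of endocytosis, had folds of 119 and 228 in siFTO lists at chr17:88643551-88643750, and no peak in siCtrl lists. It was otherwise present only at day -2, with a fold of 685. Wls, the carrier that brings Wnt proteins to the cell surface, had 75.5 and 87.2 in siFTO lists and no peak in any other list. Tbc1d1, a Rab GTPase-activating protein of glucose transporter traffic, had 79.5 and 97.8 in siFTO lists and 308 at day -2. Mycbp2, a ubiquitin ligase, had 126 and 90.8 in siFTO lists alone. All 10 lay at least 3313 bases from their start, 7 of them were also held at day -2, and none was held by a later stage.

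The lost regions with the highest fold ranks included those named for Zfp984, Pogk, Pcdhgc4, Gab1, Setd4, Med15, Zfp458, Pdlim5 and Dcun1d2. The region named for Pcdhgc4 lay outside the RefSeq Pcdhgc4 gene and met other RefSeq genes. Pogk, a DNA-binding protein of transposon origin, had no peak in siFTO lists and 32.7 and 28.0 in siCtrl lists, 328 bases from its start. Pdlim5, a PDZ and LIM domain protein of the cytoskeleton, had no intronic peak in siFTO lists and 23.5 and 15.9 in siCtrl lists, 269 bases from its start. Its region chr3:142395276-142395625 was held with 166, 77.6, 143 and 148 at days 0, 2, 5 and 10 and was absent at day -2. A peak of another transcript part met this region in at least 1 list. Dcun1d2 was held by 1 stage list, day -2, and the lost regions named here other than those of Pdlim5 and Dcun1d2 by none.

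Over the stages, the day -2 list overlapped less with each other list than days 0, 2, 5 and 10 did with one another, and the same held over the regions of every part as well. Day 0 shared 1241 regions with day -2, which is 23.4% of those at day -2 and 29.7% of those at day 0. The later steps shared more, 2960 regions between days 0 and 2, 3235 between days 2 and 5, and 3579 between days 5 and 10, or 76.9% of day 5 and 79.3% of day 10. The Jaccard index, shared regions over those held by either list, was 0.34 for the siFTO pair and 0.70 for the siCtrl pair in intronic regions, and 0.59 and 0.81 over the regions of every part. The siFTO lists scored 0.14 to 0.19 with days 0 to 10, against 0.33 to 0.42 for the siCtrl lists, and over every part 0.29 to 0.34 against 0.46 to 0.54. Day -2 scored 0.13 to 0.20 with the other lists in intronic regions, and 0.25 to 0.39 over every part. Each day has 1 list, so day and library cannot be told apart. Without the day -2 list, 2571 regions were in 5 or more lists and 6957 in 1 list.

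**Figure D5:**
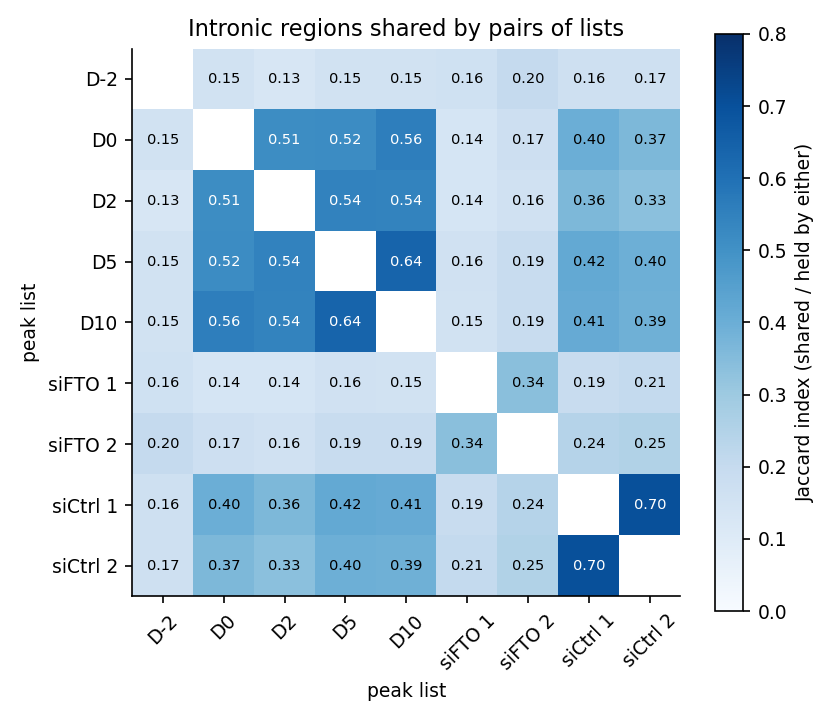
Jaccard index of intronic regions for each pair of the 9 peak lists (both axes), from 0 (white) to 0.8 (dark blue). Days 0, 2, 5 and 10 form a block of 0.51 to 0.64, the siCtrl pair reaches 0.70 and the siFTO pair 0.34, and the row of day -2 stays at or below 0.20.

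Held by days 2, 5 and 10 and by neither day -2 nor day 0 were 322 of the 10822 intronic regions of the stage lists. That is 2.98%, where 3.53% of the regions of every part had this pattern. The 5 with the highest fold ranks were in Agt, Ginm1, Prkar2a, Sidt2 and Gnb5. Agt, angiotensinogen, which adipocytes secrete, had folds of 244, 546 and 232 at days 2, 5 and 10 at chr8:124561876-124562775 and no peak in the other lists. Prkar2a, a regulatory subunit of protein kinase A, had 51.8, 81.7 and 49.8 on those days at 658 bases from its start, and 12.1 in siCtrl 1.

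Held by days -2 and 0 and by none of days 2, 5 and 10 were 129 regions (1.19%), where 0.467% of the regions of every part had this pattern. The 5 with the highest fold ranks were in Grid2ip, Ntm, Adam23, Alpk1 and Eml4. Ntm, a cell adhesion protein of neurons, had 230 and 188 at days -2 and 0, and 207 and 384 in siFTO lists with no peak in siCtrl lists. Alpk1, a kinase of innate immune sensing, had 196 and 77.2 at days -2 and 0, and 81.1 and 93.1 in siFTO lists with no peak in siCtrl lists. Of the 129 regions, 41.1% and 48.8% were in siFTO 1 and siFTO 2, against 16.3% and 17.8% in siCtrl 1 and siCtrl 2.

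Fto, the knockdown's target, had 1 intronic region, chr8:91313526-91313625, which lies 209 bases from its start. It was absent from both siFTO lists and had folds of 6.33 and 4.96 in siCtrl lists. Among the stages it was absent at day -2 and had 9.01, 10.1, 8.72 and 8.61 at days 0, 2, 5 and 10. Fto coding and UTR peaks numbered 5 and 4 in siFTO lists, against 5 and 5 in siCtrl lists, so the lists do not show the level of Fto RNA, which was not measured here. Alkbh5, the other demethylase, had 3 intronic regions. The one at chr11:60538001-60539200, 918 bases from the start, was in all 9 lists with folds of 2.30 and 2.80 in siFTO lists, against 11.5 and 9.95 in siCtrl lists, ranges that did not overlap. Over the days it had 1.94, 12.5, 11.5, 17.2 and 14.9, with day -2 again nearest to the siFTO lists.

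Of 21 genes that write, erase or read m6A, 20 had a peak, 12 an intronic peak and 5 a region in 5 or more lists, which is 25.0% of the 20 where 14.7% of all genes with a peak had one. The 5 were Fto, Alkbh5, the readers Ythdf2 and Hnrnpa2b1, and Wtap. In Ythdf2, which directs m6A-marked RNA to decay, the region was 593 bases from the start, was absent from siFTO and siCtrl lists, and had 25.5, 42.0, 254, 57.0 and 102 over the days. In Hnrnpa2b1 the region 535 bases from the start was absent from siFTO lists and had 2.11 in siCtrl 1 alone. The methyltransferase genes Mettl3, Mettl14 and Mettl16 and the nuclear reader Ythdc1 had coding or UTR peaks in every list and no intronic peak in any. The gene lists were chosen with earlier results of these data known, so their counts are a description.

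Among 34 host genes of small nucleolar RNAs, 28 had a peak and 9 (32.1%) a recurrent region, against 14.7% of all genes. Of their 31 intronic regions, 1 was gained and 7 were lost, where 1503 and 1063 of all 17038 were. Hspa8, a heat shock cognate chaperone, had a region 175 bases from its start that was absent from siFTO lists and had 4.44 and 3.82 in siCtrl lists. Rpl7a, a ribosomal protein gene, likewise had no intronic peak in siFTO lists at 247 bases from its start, with 3.25 and 2.47 in siCtrl lists. A peak of another transcript part met this Rpl7a region in at least 1 list. Ddx39b, an RNA helicase of mRNA export, had a region 7855 bases from its start in all 9 lists, with 2.53 and 3.81 in siFTO lists against 5.20 and 5.28 in siCtrl lists. Only 10 intronic regions of all genes met a small nucleolar RNA gene of the RefSeq table.

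Splicing factors and their kinases had 42 genes with a peak, 31 with an intronic peak and 11 (26.2%, against 14.7% of all genes) with a recurrent region. Of their 82 regions, 6 were gained and 13 lost, where 1503 and 1063 of all 17038 were. Srsf10, a splicing regulator, had its region 686 bases from the start absent from siFTO lists, with 17.3 and 12.3 in siCtrl lists and 28.1 to 90.0 at days 0 to 10. Acin1, a component of splicing-dependent RNA complexes, had a region 37077 bases from its start in all 9 lists, with 6.89 and 3.87 in siFTO lists against 6.13 and 7.65 in siCtrl lists. Factors of cleavage and polyadenylation had 19 genes with a peak and 1 (5.26%, against 14.7% of all genes), Cpsf7, with a recurrent region. Of their 16 regions, 1 was gained and 1 lost. The Cpsf7 region, 240 bases from the start, was absent from siFTO lists and had 2.33 and 2.34 in siCtrl lists.

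Adipogenic transcription factors had recurrent regions on 5 of 20 genes with a peak (25.0%), and inhibitors of adipogenesis on 5 of 15 (33.3%), against 14.7% of all genes. Of the 48 regions of the factors 3 were gained and 5 lost, and of the 36 of the inhibitors 3 were gained and 4 lost. Of all 17038 intronic regions, 1503 were gained and 1063 lost. Creb1, which acts early in adipogenesis, had a region 307 bases from its start absent from siFTO lists, with 7.36 and 5.81 in siCtrl lists and 22.8 to 72.6 at days 0 to 10. Rxra, the partner receptor of PPARγ, had a region 1268 bases from its start absent from siFTO lists, with 6.67 and 4.65 in siCtrl lists. Nr3c1, the glucocorticoid receptor, had a region 29908 bases from its start in all 9 lists, with 8.62 and 9.28 in siFTO lists against 8.39 and 7.54 in siCtrl lists. Dlk1, which holds cells in the preadipocyte state, had a region 1141 bases from its start absent from siFTO lists, with 2.21 and 4.25 in siCtrl lists and 5.35, 154, 121, 28.8 and 376 over the days. Runx2, a bone-lineage factor, had a region in all 9 lists, with 3.97 and 3.43 in siFTO lists against 12.7 and 15.4 in siCtrl lists, ranges that did not overlap. Other inhibitors had higher folds in siFTO lists: Tcf7l2, a transcription factor of Wnt signalling, had 83.4 and 124.9 in siFTO lists against 37.3 and 35.5 in siCtrl lists, and Ddit3, a stress-induced C/EBP family member, had 2.81 and 5.34 against 1.80 and 2.12.

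Mature adipocyte lipid genes had intronic regions mostly of the later days. Of 20 genes with a peak, 16 had an intronic peak and 2 (10.0%, against 14.7% of all genes) a recurrent region. Their regions numbered 6, 1, 16, 31 and 29 at days -2, 0, 2, 5 and 10, and 13 and 8 in siFTO lists, against 3 and 4 in siCtrl lists. Presence of a peak needs the RNA, and whether RNA level or m6A differed between the days cannot be told apart in these lists. Plin1, which coats lipid droplets, had a region of 102, 136 and 15.7 at days 2, 5 and 10 alone. Fabp4, the adipocyte fatty acid carrier, had one of 36.7, 19.4 and 14.3 on those days alone, and Pparg had one of 26.9 and 24.9 at days 5 and 10. These count intronic peaks only, and a peak of another transcript part met the Plin1 and the Fabp4 region in at least 1 list. Lpl, lipoprotein lipase, had a region in 7 lists, with 75.7 and 122 in siFTO lists against 5.30 and 4.77 in siCtrl lists. That Lpl region had 333, 2.13 and 2.03 at days -2, 0 and 5, and was absent at days 2 and 10.

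Preadipocyte and extracellular matrix genes had the highest share with a recurrent region among the lists of 20 or more genes, 10 of 24 (41.7%, against 14.7% of all genes). Pdgfra, a growth factor receptor of preadipocytes, had a region 4804 bases from its start in all 9 lists, with 13.9 and 10.9 in siFTO lists against 11.2 and 10.8 in siCtrl lists. Its day values were 15.3, 12.2, 23.3, 42.3 and 25.9. Col6a3, a collagen VI chain, had a region in all 9 lists, with 8.04 and 9.26 in siFTO lists against 18.9 and 15.2 in siCtrl lists, ranges that did not overlap. Col6a2, another chain of collagen VI, had the other order in a region of all 9 lists, with 4.51 and 4.94 in siFTO lists against 1.70 and 1.71 in siCtrl lists. The list held 108 intronic regions, 53 and 28 of them in siFTO lists against 20 and 22 in siCtrl lists, where all genes had 7125 and 4931 in siFTO lists against 3109 and 3591 in siCtrl lists. Of the 108, 8 were gained and 4 lost, where 1503 and 1063 of all 17038 were.

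Cell cycle and DNA replication genes had a recurrent region on 1 of 36 genes with a peak (2.78%, against 14.7% of all genes), Cdk2, and 17 had an intronic peak. Of their 23 regions, 3 were gained and 0 lost, where 1503 and 1063 of all 17038 were. Top2a, a topoisomerase of dividing cells, and E2f1, which drives entry into S phase, each had a region held by day -2 and both siFTO lists alone, with 12.7 and 17.1 in siFTO lists for Top2a and 36.6 and 18.9 for E2f1. Chromatin modifier genes had recurrent regions on 4 of 33 (12.1%, close to the 14.7% of all genes), with 2 of 48 regions gained and 3 lost. Smarca2, a remodelling ATPase, was one, with a region absent from siFTO lists and 12.7 and 14.8 in siCtrl lists. Long adhesion and neuronal genes, with a median length of 739850 bases, had recurrent regions on 5 of 21 (23.8%, against 14.7% of all genes), with 7 of 62 regions gained and 1 lost. Cdh11, a cadherin of fibroblasts, had a region in all 9 lists, with 7.34 and 10.5 in siFTO lists against 15.5 and 14.9 in siCtrl lists. Macrod2, a mono-ADP-ribosylhydrolase, had the other order, with 22.0 and 25.3 in siFTO lists against 12.1 and 14.2 in siCtrl lists. Of the long noncoding RNA genes 6 had a peak, and Airn, the antisense transcript that silences Igf2r in mouse, had 6 recurrent regions. Its region chr17:12816826-12817325 was in all 9 lists, with 3.79 and 3.38 in siFTO lists against 5.45 and 8.01 in siCtrl lists.

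Among the markers fixed for other cells, 3 genes of macrophages, endothelium or muscle had an intronic region, each in 1 list. Tek and Vwf mark endothelium and Csf1r macrophages, and their regions were in day -2, siFTO 1 and siFTO 1. The regions of highest fold in 1 list alone included Galnt9 with 140 in siFTO 1, Fancd2 with 68.4 in siFTO 2, Srgap3 with 30.8 in siCtrl 1 and Nbdy with 39.0 in siCtrl 2. At day -2 the highest was 641, named for Pigc, a place that lies in Dnm3.

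Of the 1005 miRNA hairpins searched, 22 were met by intronic regions, 13 on the strand of the named gene and 9 on the other strand. Regions of 5 or more lists held 7 of the 22, where 16.4% of all intronic regions were of that kind. Counted from the RefSeq genes instead, 28 intronic regions met a miRNA gene, 9 of them in 5 or more lists. The region of Mir214, chr1:162223326-162223500, was absent from siFTO lists and had 4.49 and 3.46 in siCtrl lists. It had 1.49, 2.29, 2.23 and 3.00 at days 0, 2, 5 and 10 and was absent at day -2. The region of Mir199a-2, chr1:162217726-162218050, was absent from siFTO lists and had 6.6 and 8.88 in siCtrl lists, and 4.22 and 8.21 at days 5 and 10. Both hairpins lie within the RefSeq gene Dnm3os, on the strand opposite to Dnm3, and which of these transcripts gave the peaks was not tested. Mir3091 in Rps21, a ribosomal protein gene, was in a region of 7 lists, absent from siFTO 1 with 2.47 in siFTO 2, against 1.65 and 1.68 in siCtrl lists. The region of Mir8114, which met the glutamine synthetase gene Glul, was absent from siFTO 2 with 13.1 in siFTO 1, and absent from siCtrl 1 with 27.3 in siCtrl 2. A peak of another transcript part met it in at least 1 list. The region of Mir7654 was in all 9 lists, with 1.57 and 1.84 in siFTO lists against 5.71 and 5.93 in siCtrl lists, and 3.89, 151, 611, 223 and 570 over the days, and it also lay in Arglu1, a splicing-associated gene.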

How the data were processed

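The 18 m6A-seq libraries of 3T3-L1 cells were deposited as 9 peak lists, 1 for each IP with its input, with no pooling of replicates. The submitters' processing notes name TopHat2 2.0.9, bedtools and the mm10 build. For peak calling, its thresholds and any depth scaling, no method is stated in the sources used here. Every deposited peak carries, per the file headers, its transcript part and an enrichment, a ratio from the authors that is read here as the fold of IP over input. Mitochondrial lines with shifted cells, 0 to 21 per list, were left out.

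Intronic peaks were merged with Python 3.11.15 and pandas 2.3.3, and positions count from 1. Of 7293 gene IDs, 7243 had a symbol. RefSeq starts (GRCm38.p6) placed 15357 regions. The merging was tested on simulated data, where 3000 of 3000 regions were recovered. Regions were named by rule: the m6A genes with an intronic region, the 10 regions of all 9 lists, 10 gained, 10 lost and 5 of each stage pattern with the highest worst fold percentile (1 per gene, no Gm or Rik symbols), the highest fold in 1 list, the 10 genes with most recurrent regions, up to 4 examples per gene list. miRNA hairpins, Gm20388, and the regions at a start whose sequence is shown were chosen after their values were seen. The regions, the 15 gene lists and the tests were chosen with earlier results of these data known. Exact permutation tests compared 5 planned measures and 1 added after the data had been examined. Replicate 1 carries no number in the labels. A lost region that the rule names is not reported here.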

Additional observations from a re-analysis of the deposited data

How the results depend on the processing

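Over 13 alternative settings, 102 values were recomputed, of which 96 kept their direction or stayed within 1.5 times, and none changed sign. Taking peaks at or above the median fold of their list gave 1545 regions in 5 or more lists, against 2796. Lists of equal length, 3976 intronic peaks each, gave 1675 in 5 or more lists, 818 gained and 204 of days 2, 5 and 10 only. Leaving out 1 siFTO or siCtrl list moved the gained regions between 1571 and 5195 and the lost regions between 1235 and 1528, since fewer lists then set the rule. The near-start measure and the settings without Gm20388, without the day -2 list and within the own RefSeq gene alone were added after the data had been examined. With a replicate block, that is, differences within replicate numbers, the means stayed the same by construction (6.96 percentage points for the intron share, 2255.5 peaks, 1572 genes, -41.5 and -2.44 percentage points for the stage and exonic shares), with an exact sign-flip p of 0.5, the smallest it can give. With 2 lists per group the numbers could not be checked to pair the samples. Depth is unknown, so a missing peak sets no upper limit on m6A.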
